A study of Mus musculus with 11 samples.

Results

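Clustered protocadherins are cadherin-related adhesion molecules of neurons, encoded in the alpha, beta and gamma clusters that lie next to each other on mouse chromosome 18. They were read here in J-RGCs, the Jam2-expressing retinal ganglion cells of the mouse, of animals with a knockout of the T-box transcription factor gene Tbr1 and of wild-type animals. The members were all rows of the count files whose symbol begins with Pcdha, Pcdhb or Pcdhg, which gave 59 of 24421 genes. They comprised 15 alpha, 22 beta and 22 gamma rows, among them the 5 c-type isoforms Pcdhac1, Pcdhac2, Pcdhgc3, Pcdhgc4 and Pcdhgc5.

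In the alpha and gamma clusters each isoform is made from its own large variable exon with its own promoter, which is spliced to constant exons that all isoforms of that cluster share. Beta genes have a single coding exon and no shared constant part. A neuron switches on a small, largely random choice of the variable promoters, helped by CTCF and cohesin and opposed by DNA methylation, while c-type isoforms are used more uniformly. The proteins bind only like partners on facing membranes, and in the retina the gamma cluster is known for letting the dendrites of starburst amacrine cells avoid each other and for the survival of retinal neurons.

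The KO group comprised 6 libraries of J-RGCs from 4 Tbr1 KO animals, and the WT group comprised 5 libraries of J-RGCs from 4 WT animals, all at postnatal day 4-5 on a mixed C57BL/6 and CD1 background. Each library was one pool of 100 cells, sorted from the retina by the GFP of a transgenic line specific to J-RGCs that both genotypes carried, and 3 animals gave 2 pools each. Which part of Tbr1 the KO removed is not given in the labels, so the total count of Tbr1 is no check of the genotype. Counts of the pools of 1 animal were summed, so that the animal was the replicate, and the animals are called KO a to d and WT a to d.

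Libraries held 8609845 to 34718693 reads on genes and 13897 to 15440 detected genes. Tbr1 was at 119.5 ± 23.4 CPM in KO and 169.5 ± 16.5 CPM in WT animals (SD, n = 4 each), with a log2 fold change, KO over WT, of -0.50 ± 0.15 (SE) and an edgeR adjusted p of 0.369. Levels are TMM-scaled CPM, a gene's count relative to all reads on genes of its library. All 9 ganglion cell markers listed passed the filter on low counts and summed to 11116 to 12456 CPM in KO and 10766 to 12647 CPM in WT animals, and 1 of them, Jam2, fell in KO animals (edgeR adjusted p 6.41e-05). At an unadjusted p under 0.05, 5 of the 9 were lower in KO animals, Jam2 included, beside 3.7% of all genes. At this threshold 1, Nefl, was higher, beside 3.4% of all genes, and the median log2 fold change of the 9 was -0.40. Pou4f2 (-0.79 ± 0.15, SE; edgeR adjusted p 0.0681) and Thy1 (-0.40 ± 0.12, SE; edgeR adjusted p 0.355) were lower in every KO animal than in every WT animal, and the sum rests largely on Nefl and Sncg. Of the markers of other cells, 0 passed adjustment. Nrl, Slc6a9 and Calb1 were higher in KO animals at an unadjusted p under 0.05, beside 3.4% of all genes. Log2 fold changes were positive for 4 of 4 amacrine, 2 of 2 bipolar, 2 of 2 horizontal cell and 4 of 4 Müller glia markers tested. They were positive for 0 of 4 astrocyte, vascular and microglia markers tested, beside 49.9% of all genes. All 6 photoreceptor markers were tested, and all 6 had positive log2 fold changes. Their sum was 19.4, 113, 462 and 81.6 CPM in KO animals a to d. In WT animals a to d it was 16.4, 29.8, 45.1 and 137 CPM, so only KO animal c lay above all WT animals. The 3 horizontal cell markers, of which Lhx1 was at 0 in every library, summed to 22.9 to 41.0 CPM in KO and 8.68 to 21.0 CPM in WT animals, without overlap. This sum rests almost wholly on Calb1, at 22.9 to 40.5 CPM in KO and 8.68 to 21.0 CPM in WT animals. Onecut1 reached 1.27 CPM in KO and 0.581 CPM in WT animals and overlapped. Of all genes tested, 5.06% did not overlap between the genotypes. Bipolar markers summed to 43.5 to 103 CPM in KO and 32.3 to 55.2 CPM in WT animals, amacrine markers to 16.0 to 55.5 CPM in KO and 8.62 to 41.3 CPM in WT animals, and Müller glia markers to 77.3 to 311 CPM in KO and 72.0 to 175 CPM in WT animals. KO animal c held the highest of each of these sums too. The 5 astrocyte, vascular and microglia markers summed to 3.51 to 15.3 CPM in KO and 12.2 to 49.4 CPM in WT animals. The part of such cells, or of the ganglion cell marker differences, in the protocadherin levels was not tested, and fewer expressing cells and less RNA per cell cannot be told apart in pooled libraries.

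All 3 clusters were expressed, and the members together took 0.0701% to 0.0958% of the gene reads of a library, or 7369 to 31043 counts. Reads that fall in an exon shared by several genes are set aside as ambiguous by gene counters in their default mode, so a constant exon shared by all isoforms of a cluster may contribute nothing to these rows, and the rows then read mainly the variable exons. The labels do not give how the authors' counting treated such reads. Between 53 and 55 members had at least 1 count in each library. In KO libraries 54.5 ± 0.548 members were detected (SD, n = 6), against 54.4 ± 0.894 in WT libraries (SD, n = 5). Pools of the same animal were counted singly here, so these SDs mix spread within and between animals and are only a description. After thinning every library to the depth of the shallowest, 53.1 to 55.0 members would be expected in KO libraries and 51.9 to 54.4 in WT libraries.

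Pcdha4, Pcdha6, Pcdha7 and Pcdhb1 had 0 counts in all 11 libraries. The first 3 of these are the alpha isoforms for which the RefSeq and GENCODE M21 annotations also hold a read-through gene that joins an alpha variable exon to the gamma cluster. The rows of these read-through genes had counts. Over the 11 libraries Gm37013 had 19 reads, Gm38666 had 106 and Pcdha7-g had 180. RefSeq gives the names Gm37013 and Gm38666 to the read-through genes of Pcdha4 and Pcdha6, in this order. Pcdha7-g was taken as the read-through gene of Pcdha7, which has another name in the RefSeq annotation used. GENCODE M21 names its own read-through genes otherwise, and gives Gm37013 to that of Pcdha6, so the isoform to which the Gm37013 reads belong cannot be told without the authors' annotation. In GENCODE M21, Gm42416 covers 96.3% of the Pcdha4, Gm37013 8.9% of the Pcdha6 and Gm37388 13.6% of the Pcdha7 variable exon. The part of such overlaps in the zeros was not tested. Pcdhb1, a beta gene at one end of its cluster, has no such overlap.

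A further row was not tested in the main fit. Pcdhgb8, which is annotated as a pseudogene and was looked at after its counts were seen, had 0, 0, 26, 0, 27 and 65 counts in KO libraries 1 to 6, against 1, 1, 0, 2 and 1 counts in WT libraries 1 to 5. More than 3 counts were thus seen in 3 of 6 KO pools and in 0 of 5 WT pools, and KO animal b had them in 1 of its 2 pools. It failed the filter on low counts, so no fold change is given for it. In the alternative edgeR fits that kept it, without the filter or without 1 animal, its adjusted p was 0.516 to 0.738.

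Levels were compared between isoforms per kilobase (kb) of variable exon, or of the single-exon gene for beta members. Pcdhac2 was the most abundant member at 45.4 CPM per kb (37.4 to 53.3 over the 8 animals). Its lowest animal lay above the highest animal of every other member. Pcdhb9 followed at 23.4 CPM per kb (18.5 to 28.3 over the 8 animals), Pcdhb7 at 18.9 CPM per kb (13.2 to 31.5 over the 8 animals) and Pcdhgc4 at 17.6 CPM per kb (11.6 to 23.8 over the 8 animals), and the ranges of these neighbours overlapped. The next were the alpha isoforms Pcdha2 at 10.8 CPM per kb (7.46 to 15.1 over the 8 animals), Pcdha3 at 9.33 CPM per kb (1.52 to 19.6 over the 8 animals) and Pcdha12 at 8.42 CPM per kb (4.67 to 11.4 over the 8 animals), whose ranges also overlapped.

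The median over the members with counts was 7.05 CPM per kb in the alpha cluster, 2.80 CPM per kb in the beta cluster and 2.06 CPM per kb in the gamma cluster. The lowest alpha isoform with counts, Pcdha1, was at 2.76 CPM per kb (1.36 to 6.13 over the 8 animals). The lowest beta member was Pcdhb13 at 0.684 CPM per kb (0.0874 to 1.35 over the 8 animals). The lowest gamma member was Pcdhgb8 at 0.173 CPM per kb (0 to 0.815 over the 8 animals). Levels within a cluster thus spanned a wide range, and the other alpha c-type isoform, Pcdhac1, was at 6.58 CPM per kb (2.52 to 10.2 over the 8 animals), far under Pcdhac2.

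**Figure D1:**
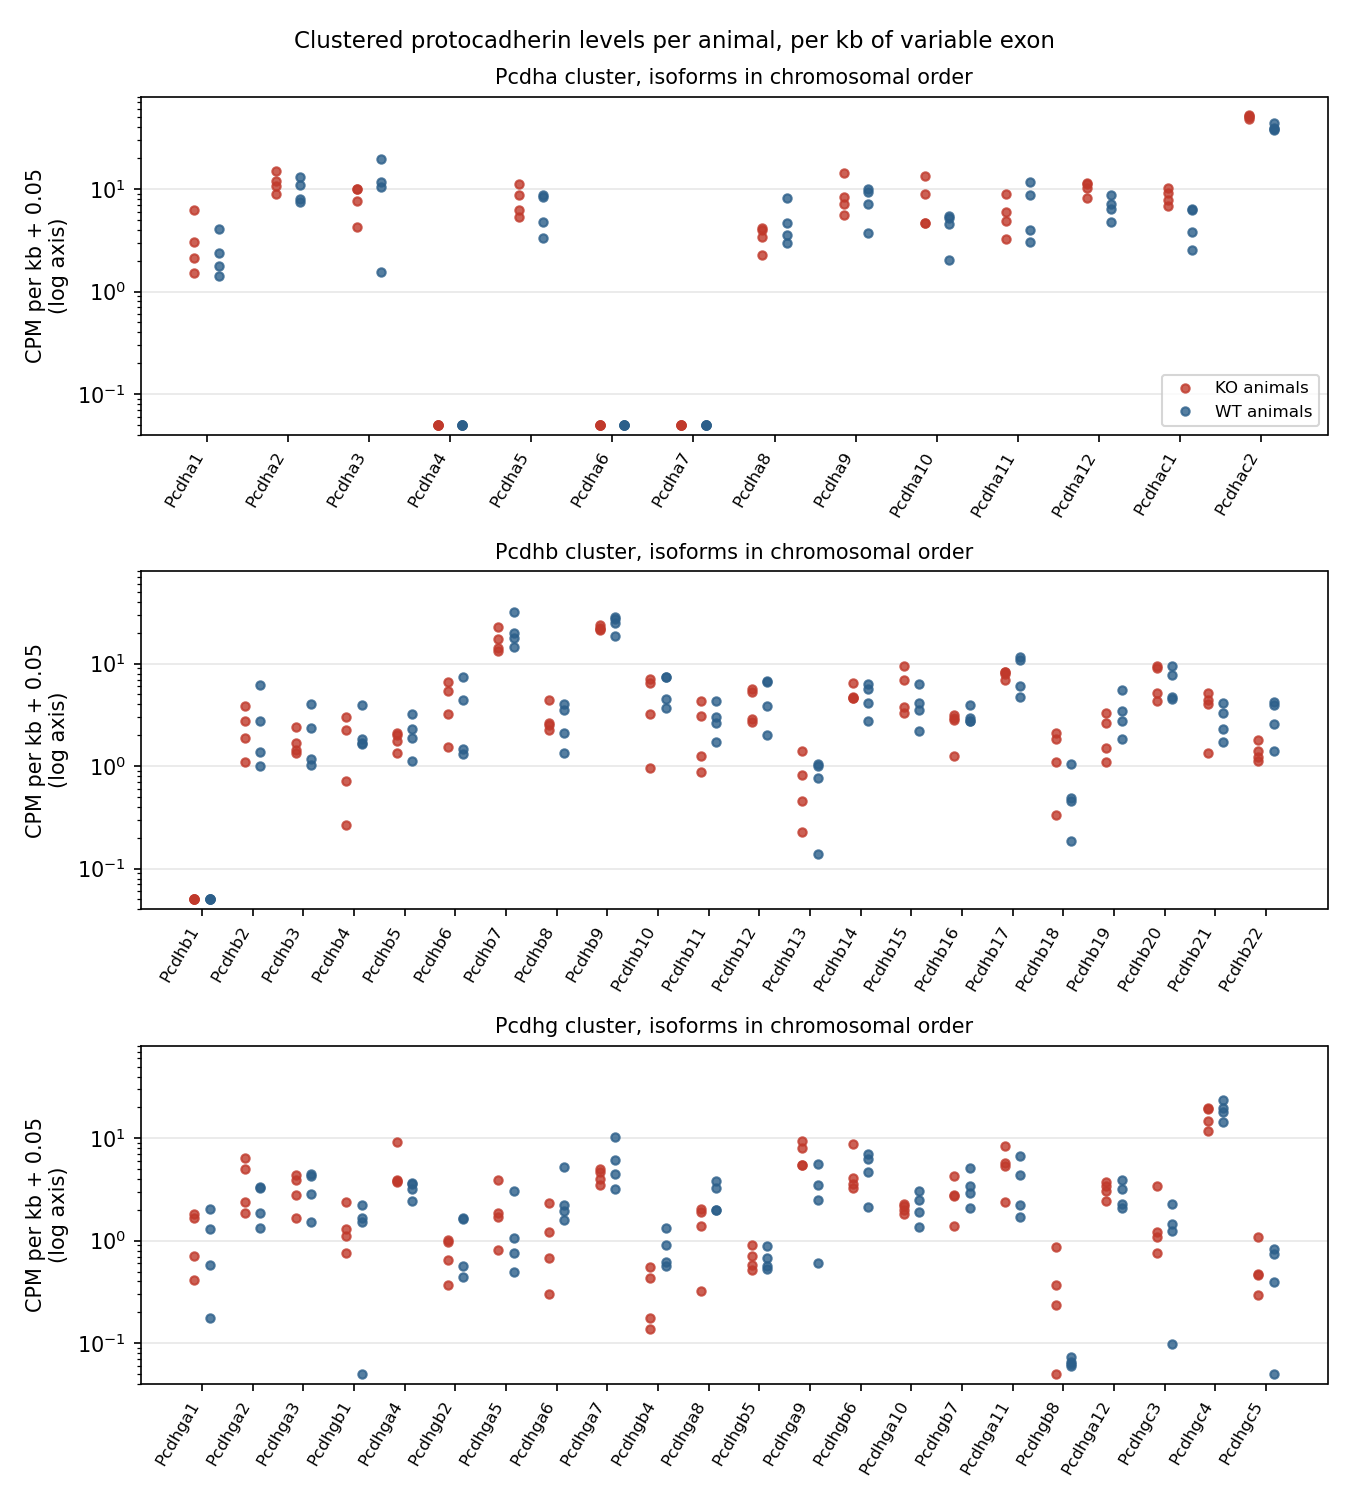
Level of each member (CPM per kb of variable exon or beta gene, plus 0.05, log axis) in chromosomal order, one panel per cluster, with KO animals (red) left of WT animals (blue) and one point per animal. Pcdhac2 lies above every other member at 37.4 to 53.3 CPM per kb, Pcdha4, Pcdha6, Pcdha7 and Pcdhb1 lie at the floor, and Pcdha7-g, which has no length here, is not drawn.

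One c-type isoform led usage in both clusters that have them. Pcdhac2 was the most used alpha isoform in 11 of 11 libraries, with 38.9% to 50.04% of the alpha counts and a mean of 44.4%. Pcdhgc4, the c-type isoform on which the survival of neurons in the mouse spinal cord is known to depend, was the most used gamma isoform in 11 of 11 libraries, with 18.9% to 35.9% of the gamma counts and a mean of 27.6%. In the beta cluster Pcdhb9 came first in 7 libraries and Pcdhb7 in 4, with mean shares of 20.4% and 18.5% of the beta counts.

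The c-type isoforms together made 51.7% ± 3.72 of the alpha counts in KO animals and 47.7% ± 4.38 in WT animals (SD, n = 4 each). They made 27.9% ± 5.06 of the gamma counts in KO animals and 32.4% ± 2.38 in WT animals (SD, n = 4 each). In both clusters the genotypes overlapped. The shares are ratios within a cluster, so a higher c-type share is at once a lower share of the other isoforms. Pcdha4, Pcdha6 and Pcdha7, at 0 counts, add nothing to the alpha total. Stretches of 50 bases that also occur elsewhere in the transcriptome make up 0.0% of the Pcdhac1 and Pcdhac2 variable exons. In the other alpha isoforms with a length they make up 10.1% to 23.4%. The part of either in the alpha shares and in the evenness below was not tested.

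Evenness of usage was measured as the effective number of isoforms, the inverse Simpson index, which equals the number of isoforms if all were used equally. It was 4.17 ± 0.431 in KO and 4.37 ± 0.605 in WT animals for the alpha cluster. For the beta cluster it was 9.82 ± 1.43 in KO and 9.18 ± 0.693 in WT animals. For the gamma cluster it was 9.12 ± 1.73 in KO and 7.84 ± 1.34 in WT animals (SD, n = 4 each). The genotypes overlapped in each of the 3 clusters. KO animals a and b and WT animal b were sums of 2 pools, and the other animals were single pools. The part of this in the evenness and its SDs was not tested. Without the c-type isoforms the alpha value was 7.39 ± 0.572 in KO and 7.03 ± 0.714 in WT animals. The gamma value was then 11.1 ± 0.743 in KO and 12.0 ± 1.40 in WT animals (SD, n = 4 each). Both differences thus changed direction, again with overlap, so the order of the genotypes depended on the c-type share.

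The cluster sums showed one separation between the genotypes. The alpha sum was 336.8, 355.1, 333.4 and 339.0 CPM in KO animals a to d, against 226.1, 293.2, 297.9 and 301.8 CPM in WT animals a to d. Every KO animal was thus above every WT animal, and WT animal a lay below the other WT animals. The means were 341 ± 9.60 CPM in KO and 279.7 ± 35.9 CPM in WT animals (SD, n = 4 each), a log2 ratio of means of 0.29. Without WT animal a the log2 ratio was 0.20. Leaving out the lowest WT animal could not make the genotypes overlap, so it is no check of the separation. A sum over members that were chosen with results known was given no test.

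The separation was seen in the c-type part of the alpha cluster. Pcdhac1 and Pcdhac2 summed to 176 ± 8.36 CPM in KO and 133 ± 13.0 CPM in WT animals, at 167 to 187 CPM in KO and 119.6 to 149.9 CPM in WT animals. The alpha isoforms other than c-type summed to 165 ± 17.2 CPM in KO and 147 ± 27.8 CPM in WT animals and overlapped between the genotypes (SD, n = 4 each).

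The beta and gamma sums overlapped. The beta sum was 336 ± 28.9 CPM in KO and 370.4 ± 61.0 CPM in WT animals, a log2 ratio of -0.14. The gamma sum was 187 ± 20.5 CPM in KO and 184 ± 40.8 CPM in WT animals, a log2 ratio of 0.03. Within the gamma cluster, Pcdhga isoforms summed to 107 ± 9.82 CPM in KO and 93.2 ± 22.0 CPM in WT animals. Pcdhgb isoforms summed to 27.9 ± 6.34 CPM in KO and 31.1 ± 8.24 CPM in WT animals, and the gamma c-type isoforms to 52.5 ± 12.5 CPM in KO and 59.3 ± 12.2 CPM in WT animals (SD, n = 4 each). The 3 clusters together summed to 864 ± 35.1 CPM in KO and 834 ± 108 CPM in WT animals (SD, n = 4 each).

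**Figure D2:**
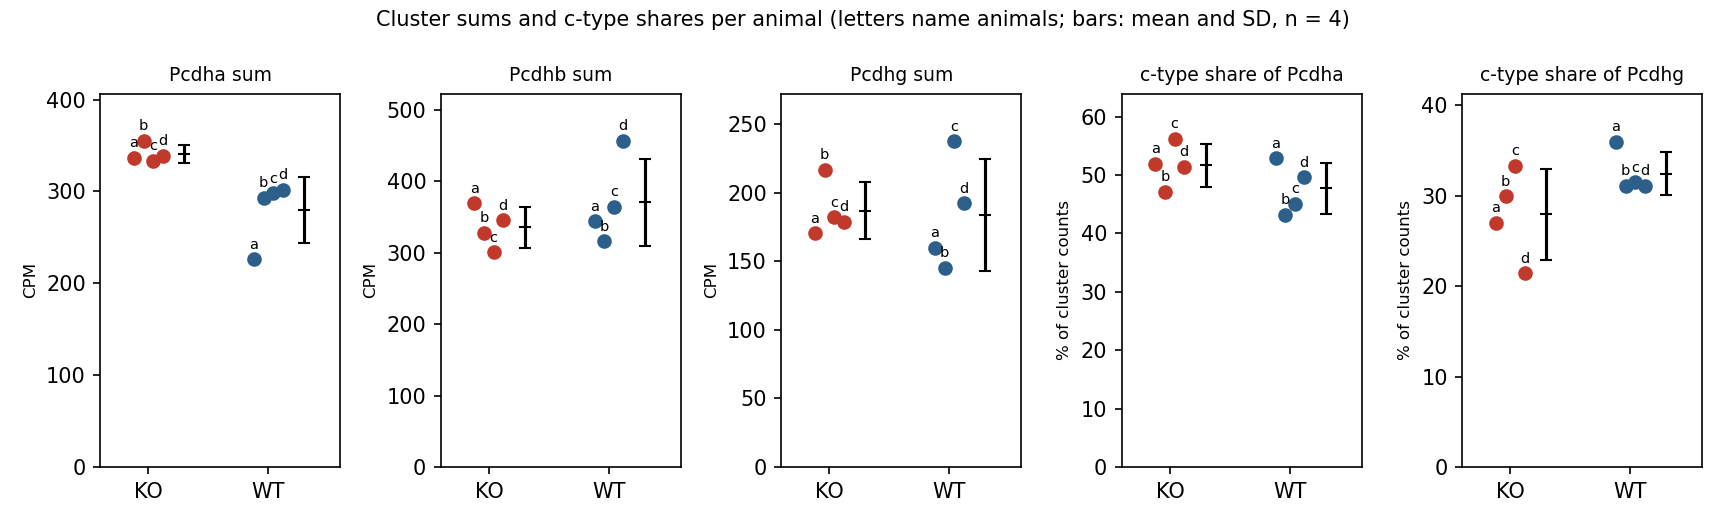
Summed level of each cluster (CPM, first 3 panels) and share of c-type isoforms in the alpha and gamma counts (percent, last 2 panels), with KO animals left of WT animals, one lettered point per animal and bars for the mean and SD (n = 4 each). The alpha sum is the one cluster sum whose KO animals, at 333.4 to 355.1 CPM, all lie above the WT animals, at 226.1 to 301.8 CPM.

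No member passed the test of single genes. Of the 59 rows 54 passed the filter on low counts, 12 alpha, 21 beta and 21 gamma. With the quasi-likelihood test of edgeR and Benjamini-Hochberg adjustment over all 13957 genes, 0 of the 54 members changed at an adjusted p under 0.05, beside 40 genes or 0.287% of the whole table. At an unadjusted p under 0.05 there were 5 members, beside 7.09% of all genes. Of these 5, Pcdhac1, Pcdhac2, Pcdha12 and Pcdhga9 had higher levels in KO animals, beside 3.4% of all genes, and Pcdhb22 a lower level, beside 3.7% of all genes. DESeq2 called 0 members at an adjusted p under 0.05, beside 1.12% of the genes it tested. The animals of the genotypes did not overlap for 4 members, beside 5.06% of all genes.

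Positive log2 fold changes, KO over WT, were found for 27 of 54 members, beside 49.9% of all genes, and the median was 0.0045 for members and -0.00071 for all genes. By cluster, 9 of 12 alpha members had a positive value with a median of 0.34, 7 of 21 beta members with a median of -0.22, and 11 of 21 gamma members with a median of 0.03. The 95% interval lay within a 2-fold change either way for 10 of 54 members, beside 51.6% of all genes tested. For 15 members or 27.8% it reached beyond a 4-fold change, beside 25.3% of all genes tested.

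**Figure D3:**
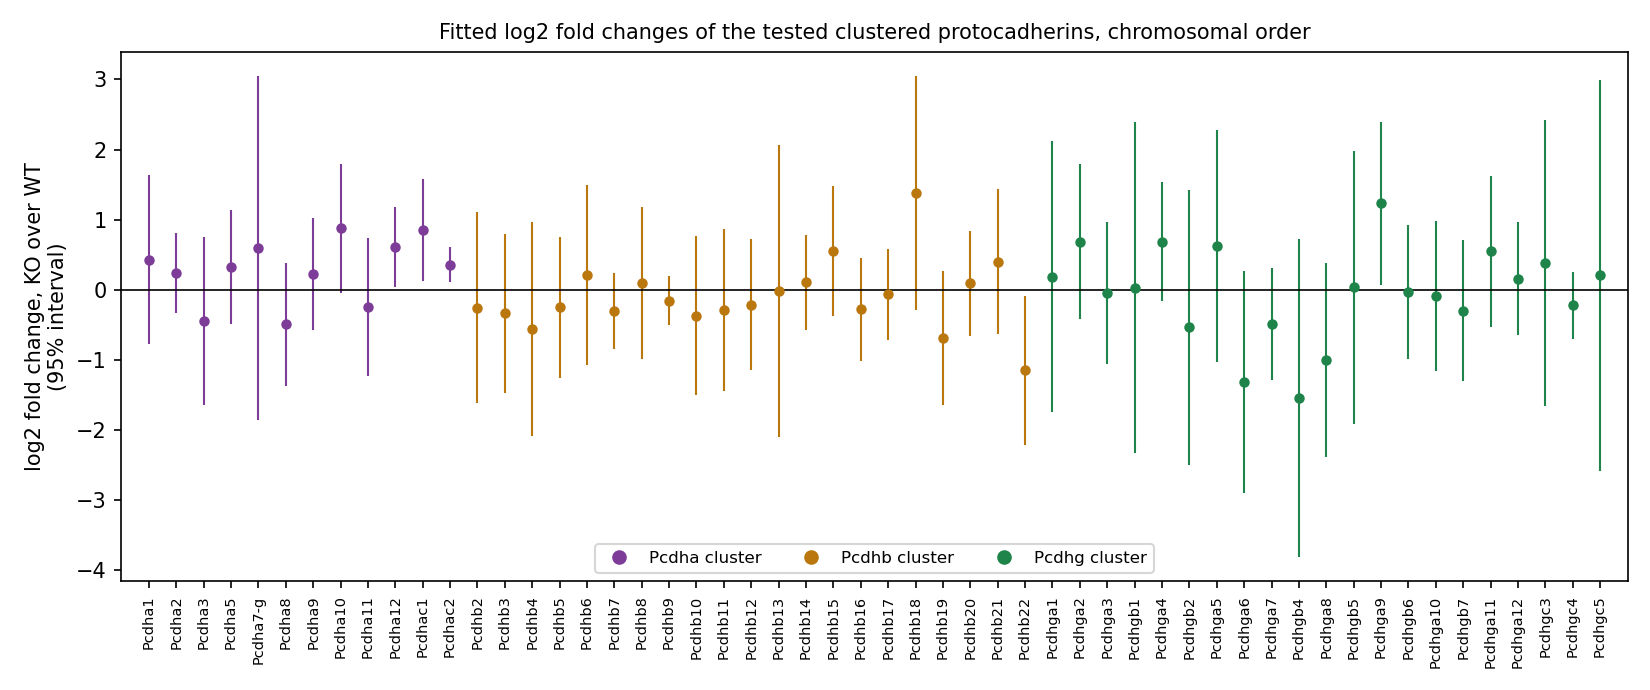
Log2 fold change, KO over WT, of each of the 54 members tested (points) with its 95% interval (lines), in chromosomal order and coloured by cluster. None passed adjustment over all genes, and the interval of Pcdhac2, 0.11 to 0.60, is a narrow one.

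Pcdhac2, known in the mouse for the even spacing of serotonergic axons, had the lowest unadjusted p of all members. It was at 157, 147, 161 and 151 CPM in KO animals a to d, against 113, 117, 119 and 134 CPM in WT animals a to d. Every KO animal was above every WT animal. The log2 fold change was 0.36 ± 0.11 (SE) with a 95% interval of 0.11 to 0.60, and the edgeR adjusted p was 0.439. Pcdhac1, the other alpha c-type isoform, was at 17.6, 20.1, 26.1 and 23.0 CPM in KO animals a to d, against 6.45, 9.61, 15.9 and 16.1 CPM in WT animals a to d, again with no overlap. Its log2 fold change was 0.85 ± 0.33 (SE; edgeR adjusted p 0.579).

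The gamma c-type isoforms did not separate. Pcdhgc4 was at 42.7, 55.2, 56.6 and 33.7 CPM in KO animals a to d, against 57.4, 41.2, 69.2 and 52.3 CPM in WT animals a to d. Its log2 fold change was -0.22 ± 0.22 (SE) with a 95% interval of -0.70 to 0.25. Pcdhgc3, an isoform known in mouse cortex for promoting dendrite arborisation, was at 2.65, 8.68, 2.99 and 1.82 CPM in KO animals a to d, against 0.121, 3.03, 3.57 and 5.68 CPM in WT animals a to d. Pcdhgc5, which in mice is known to appear late in postnatal development of the brain, was at 0.646, 1.08, 1.10 and 2.73 CPM in KO animals a to d, against 0, 0.906, 2.06 and 1.82 CPM in WT animals a to d. Both were low and differed widely within each genotype, and their log2 fold changes were 0.38 ± 0.94 for Pcdhgc3 and 0.21 ± 1.28 for Pcdhgc5 (SE).

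The other alpha isoforms are alternative recognition units that differ in their variable extracellular part. Pcdha12 was at 25.1, 27.4, 19.9 and 28.3 CPM in KO animals a to d, against 15.6, 21.4, 11.6 and 17.4 CPM in WT animals a to d, with 3 KO animals above all WT animals and a log2 fold change of 0.61 ± 0.26 (SE; edgeR adjusted p 0.672). Pcdha2 was at 22.4, 30.0, 37.7 and 26.5 CPM in KO animals a to d, against 20.0, 33.0, 18.6 and 27.1 CPM in WT animals a to d, with overlap and a log2 fold change of 0.24 ± 0.26 (SE). Pcdha3 was at 18.8, 24.5, 24.5 and 10.4 CPM in KO animals a to d, against 3.75, 25.6, 48.5 and 28.5 CPM in WT animals a to d. WT animals held both the lowest and the highest level of Pcdha3, and its log2 fold change was -0.44 ± 0.55 (SE). On the strand opposite to Pcdha12, the annotated gene Gm10545 covers 21.5% of the variable exon, and reads of the 2 strands cannot be told apart without the strand setting.

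The other 6 alpha isoforms with counts and a length were, in falling order of level, Pcdha9, Pcdha5, Pcdha11, Pcdha10, Pcdha8 and Pcdha1. They lay between 8.14 CPM per kb for Pcdha9 and 2.76 CPM per kb for Pcdha1 (mean of the 8 animals). Each neighbour in this order overlapped the next over the animals. Of their log2 fold changes, the lowest was -0.50 ± 0.41 for Pcdha8, at 8.41 ± 2.11 CPM in KO and 11.9 ± 5.72 CPM in WT animals, and the highest was 0.87 ± 0.43 for Pcdha10, at 19.6 ± 10.3 CPM in KO and 10.7 ± 3.93 CPM in WT animals (SE for folds, SD for levels, n = 4 each). The read-through row Pcdha7-g was at 0.736 ± 0.308 CPM in KO and 0.483 ± 0.205 CPM in WT animals (SD, n = 4 each), and its log2 fold change was 0.60 ± 1.13 (SE). The antisense gene Gm10545 also covers 97.8% of the Pcdha11 variable exon.

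Beta members carry their whole protein, short cytoplasmic end included, in one exon. Pcdhb9 was at 65.7, 67.8, 64.9 and 72.3 CPM in KO animals a to d, against 56.5, 76.6, 86.4 and 82.7 CPM in WT animals a to d, with a log2 fold change of -0.16 ± 0.16 (SE). Pcdhb7 was at 61.1, 79.6, 49.7 and 46.2 CPM in KO animals a to d, against 69.4, 50.6, 62.0 and 110.5 CPM in WT animals a to d, with a log2 fold change of -0.31 ± 0.25 (SE). For both the genotypes overlapped. Pcdhb17 was at 22.4 to 27.0 CPM in KO and 15.2 to 37.5 CPM in WT animals, at a log2 fold change of -0.07 ± 0.30 (SE).

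The 2 beta members with the lowest unadjusted p pointed opposite ways. Pcdhb22 was at 3.30, 3.64, 5.36 and 4.14 CPM in KO animals a to d, against 12.7, 4.14, 12.0 and 7.69 CPM in WT animals a to d, with a log2 fold change of -1.15 ± 0.49 (SE; edgeR adjusted p 0.652). Pcdhb18 was at 5.26, 8.99, 10.5 and 1.41 CPM in KO animals a to d, against 0.686, 2.23, 5.05 and 2.07 CPM in WT animals a to d, with a log2 fold change of 1.38 ± 0.77 (SE; edgeR adjusted p 0.804). In each the genotypes overlapped.

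The other 16 beta genes with counts were, in falling order of level, Pcdhb20, Pcdhb10, Pcdhb15, Pcdhb14, Pcdhb12, Pcdhb6, Pcdhb21, Pcdhb8, Pcdhb16, Pcdhb19, Pcdhb11, Pcdhb2, Pcdhb5, Pcdhb3, Pcdhb4 and Pcdhb13. They lay between 6.77 CPM per kb for Pcdhb20 and 0.684 CPM per kb for Pcdhb13 (mean of the 8 animals). Each neighbour in this order overlapped the next over the animals. Of their log2 fold changes, the lowest was -0.69 ± 0.44 for Pcdhb19, at 9.83 ± 4.76 CPM in KO and 15.8 ± 7.39 CPM in WT animals, and the highest was 0.55 ± 0.43 for Pcdhb15, at 16.3 ± 8.14 CPM in KO and 11.1 ± 4.88 CPM in WT animals (SE for folds, SD for levels, n = 4 each). Another annotated gene, Gm37446, covers 63.5% of Pcdhb12 on the opposite strand.

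Gamma A and gamma B isoforms are the alternative isoforms of their cluster. Pcdhga9 was at 14.2, 14.1, 24.5 and 21.0 CPM in KO animals a to d, against 1.45, 8.94, 6.39 and 14.5 CPM in WT animals a to d, with a log2 fold change of 1.23 ± 0.53 (SE; edgeR adjusted p 0.672). Its KO range overlapped the WT range only through WT animal d. Without WT animal a its log2 fold change was 0.89, and without WT animal d it was 1.72. Pcdhga6 was at 3.05, 5.98, 1.63 and 0.658 CPM in KO animals a to d, against 13.6, 5.00, 4.01 and 5.71 CPM in WT animals a to d, with a log2 fold change of -1.32 ± 0.73 (SE; edgeR adjusted p 0.790).

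The most abundant gamma isoforms other than c-type overlapped between genotypes too. Pcdhga7 was at 10.5 to 15.2 CPM in KO and 9.51 to 31.2 CPM in WT animals, at a log2 fold change of -0.49 ± 0.36 (SE). Pcdhgb6 was at 10.3, 22.2, 9.04 and 8.21 CPM in KO animals a to d, against 5.28, 12.0, 17.8 and 15.8 CPM in WT animals a to d, with a log2 fold change of -0.03 ± 0.44 (SE). Pcdhga4 and Pcdhgb4 were picked after their values were seen because their genotypes did not overlap. Pcdhga4 was at 23.8, 9.94, 9.54 and 9.97 CPM in KO animals a to d, against 9.48, 6.27, 8.16 and 9.17 CPM in WT animals a to d. Pcdhgb4 was at 0.223, 0.323, 0.978 and 1.29 CPM in KO animals a to d, against 3.23, 1.32, 1.45 and 2.20 CPM in WT animals a to d. Their log2 fold changes were 0.69 ± 0.39 for Pcdhga4 and -1.54 ± 1.04 for Pcdhgb4 (SE). The Pcdhga4 exon shares 39.8% of its length with Pcdhgb1 on the same strand in the annotation.

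The other 12 gamma isoforms were, in falling order of level, Pcdhga11, Pcdhga3, Pcdhga2, Pcdhgb7, Pcdhga12, Pcdhga10, Pcdhga8, Pcdhga5, Pcdhgb1, Pcdhga1, Pcdhgb2 and Pcdhgb5. They lay between 4.56 CPM per kb for Pcdhga11 and 0.622 CPM per kb for Pcdhgb5 (mean of the 8 animals). Each neighbour in this order overlapped the next over the animals. Of their log2 fold changes, the lowest was -1.003 ± 0.64 for Pcdhga8, at 3.54 ± 2.01 CPM in KO and 7.12 ± 2.41 CPM in WT animals, and the highest was 0.68 ± 0.51 for Pcdhga2, at 9.91 ± 5.50 CPM in KO and 6.17 ± 2.58 CPM in WT animals (SE for folds, SD for levels, n = 4 each). On the opposite strand, Gm26672 covers 100.0% of the Pcdhga10, 52.4% of the Pcdhga11, 29.7% of the Pcdhgb7 and 14.3% of the Pcdhga12 variable exon, and BC037039 covers 58.9% of that of Pcdhgc3, and the 2 strands cannot be told apart there either.

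Pools of 100 cells from 1 animal differed widely in some isoforms and little in others. Over members with more than 3 counts in both pools, the median fold between the pools was 1.56 in KO animal a, 1.45 in KO animal b and 1.53 in WT animal b. Pcdhac2 differed by 1.01-fold to 1.12-fold within these 3 animals and Pcdhgc4 by 1.27-fold to 1.40-fold. Pcdha12 and Pcdha10, which are not c-type and of which Pcdha10 was picked after its values were seen, differed by 1.01-fold to 1.31-fold and by 1.03-fold to 1.45-fold. Pcdhb9 differed by 1.42-fold to 1.77-fold and Pcdhac1 by 1.14-fold to 3.01-fold. More than 2-fold differences were found in 13 of 51 members in KO animal a, in 18 of 53 in KO animal b and in 20 of 53 in WT animal b.

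The widest gap was that of Pcdhb22 in KO animal b, with 199 counts or 5.74 CPM in one pool and 4 counts or 0.191 CPM in the other, a 30.0-fold difference. In KO animal a the widest was Pcdhgc5 at 11.7-fold, and in WT animal b it was Pcdhga1 at 8.07-fold. The level of Pcdhga4 in KO animal a, the highest of the 8 animals, was 33.9 CPM in one pool and 4.81 CPM in the other. These folds compare single pools and rest on counting as well as on the cells sampled.

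**Figure D4:**
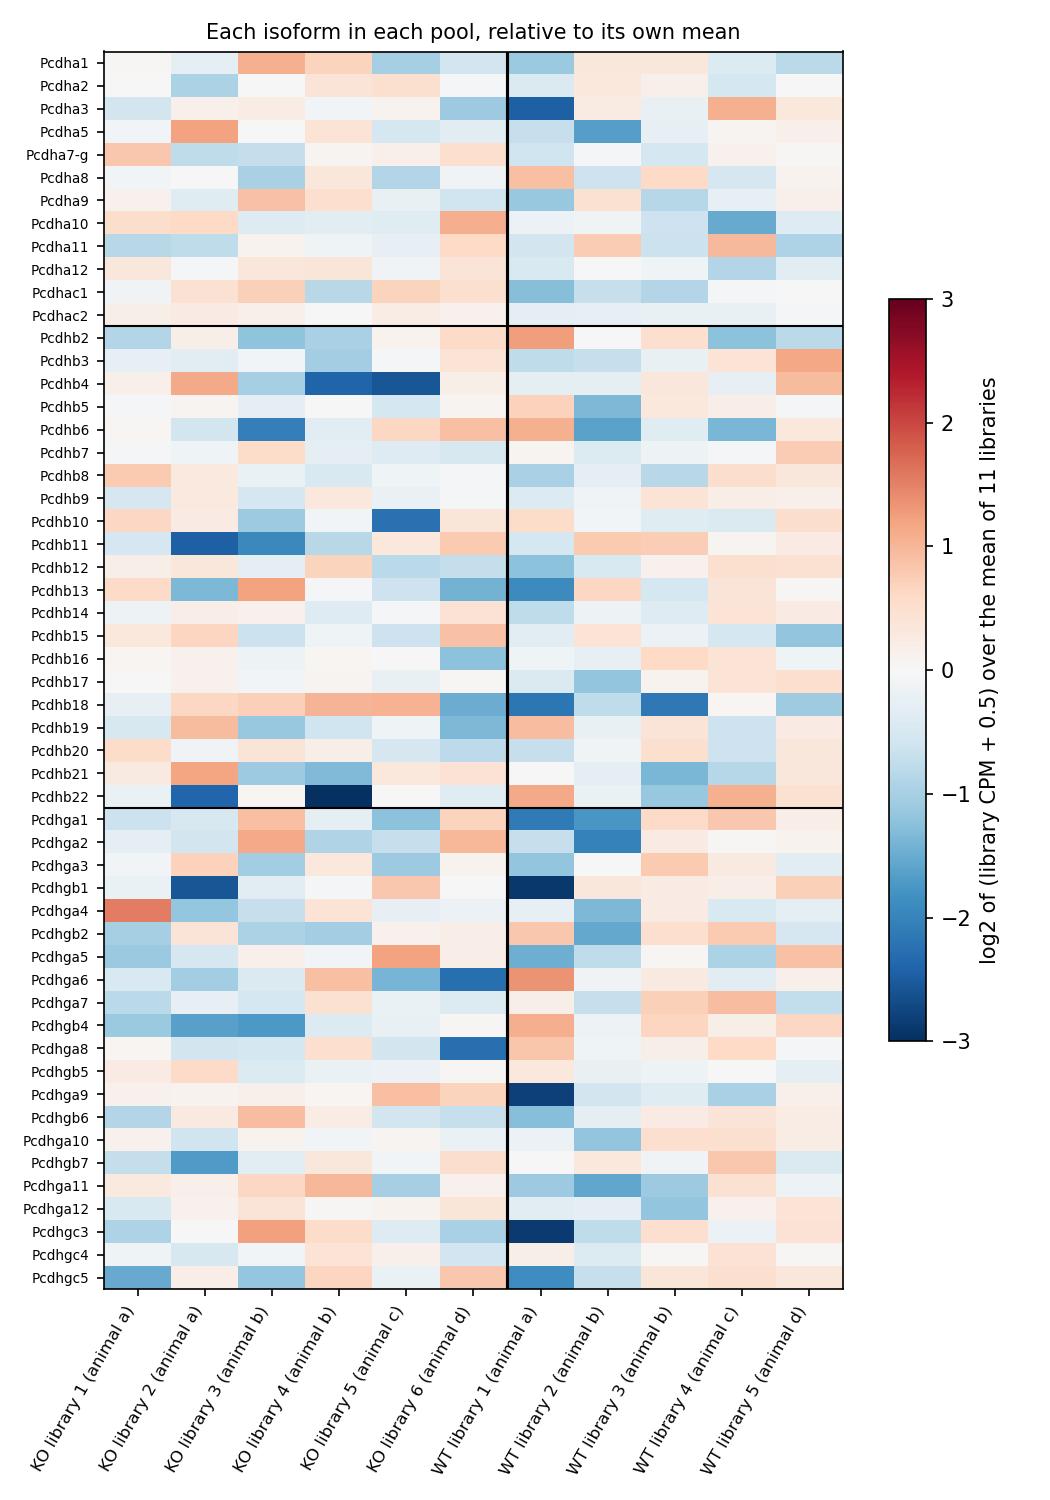
Level of each of the 54 tested members (rows, chromosomal order) in each pool (columns, the 6 KO libraries left of the 5 WT libraries), as log2 of CPM, with a small offset, over the member's own mean of 11 libraries (red higher, blue lower). The Pcdhac2 row is nearly even, whereas Pcdhb22 is at 5.74 CPM in library 3 and 0.191 CPM in library 4 of KO animal b.

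Between animals of one genotype, the edgeR dispersion of each gene was set against the edgeR trend. This dispersion is itself drawn toward the trend by edgeR, so distances from the trend are understated. It was above the trend for 19 of 54 members or 35.2%, beside 33.2% of all genes tested. Over single libraries it was again 19 of 54 members or 35.2%, beside 34.7% of all genes. By cluster the dispersion was above the trend for 4 of 12 alpha, 10 of 21 beta and 5 of 21 gamma members. The biological coefficient of variation, which is the relative spread beyond counting and comes from the same dispersion, was 0.135 for Pcdhac2 beside a trend of 0.182 at its level. It was 0.543 for Pcdha3 beside a trend of 0.349 and 0.589 for Pcdhb6 beside a trend of 0.435, and Pcdhb6 was named after its value was seen.

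**Figure D5:**
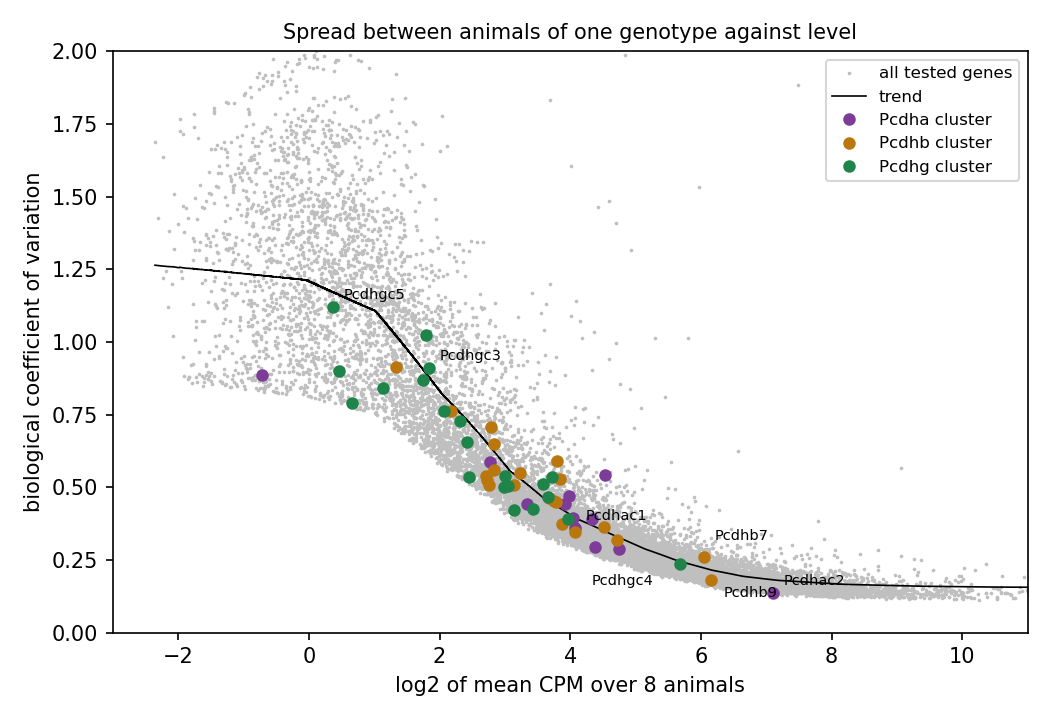
Biological coefficient of variation between animals of one genotype against level (log2 of the mean CPM over the 8 animals) for all genes tested (grey), the members (coloured by cluster) and the edgeR trend (line), with the vertical axis ending at 2. Members lie on both sides of the trend, with Pcdhac2 at 0.135 under it.

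Usage profiles were also compared between single pools. As a measure, the percentage of a cluster's counts that would have to move to another isoform to turn one profile into the other was computed for each pair of pools. For the alpha cluster its median was 14.7% over 30 pairs of a KO and a WT pool, 13.8% over 13 pairs of KO pools of different animals and 16.0% over 9 pairs of WT pools of different animals. For the beta cluster the medians were 19.1% for KO against WT pools, 18.7% for KO pools and 20.4% for WT pools. For the gamma cluster they were 24.0% for KO against WT pools, 23.3% for KO pools and 17.9% for WT pools, and the widest gamma pair of a KO and a WT pool differed by 39.8%, against 27.5% for KO pools and 30.8% for WT pools. The pairs share pools and are not independent, so they are given as a description. The 3 pairs of pools of the same animal differed by 9.45% to 13.3% for alpha, 14.1% to 22.9% for beta and 19.6% to 24.3% for gamma.

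No gene of a list of regulators of the clusters and partners of their proteins passed the test either. The list held 39 genes, 11 of CTCF and cohesin, 9 of silencing and DNA methylation, 11 kinases, receptors and proteases, and 8 of Rac1 and the WAVE complex. All 39 were tested, and 0 passed an adjusted p under 0.05, beside 0.287% of all genes. Their log2 fold changes were positive for 24 of 39, beside 49.9% of all genes, with a median of 0.03. Of the 39, 1 had an unadjusted p under 0.05, beside 7.09% of all genes. This was Mau2, which with its partner loads cohesin onto DNA, at 206 ± 21.7 CPM in KO and 259.8 ± 39.6 CPM in WT animals (SD, n = 4 each). Its log2 fold change was -0.34 ± 0.13 (SE; edgeR adjusted p 0.589).

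By the next lowest p came Abi1, a subunit of the WAVE complex that drives actin branching, at 149 ± 26.0 CPM in KO and 122 ± 26.0 CPM in WT animals, and its log2 fold change was 0.29 ± 0.18 (SE). Pds5b, a cohesin regulator, was at 22.8 ± 6.51 CPM in KO and 31.4 ± 10.7 CPM in WT animals, and its log2 fold change was -0.46 ± 0.29 (SE). Ptk2, the focal adhesion kinase whose activity the alpha and gamma protocadherins are known to inhibit, was at 17.8 ± 4.22 CPM in KO and 23.1 ± 5.37 CPM in WT animals, and its log2 fold change was -0.38 ± 0.28 (SE). Ctcf and Dnmt3b were picked for their role after their values were seen. Ctcf, which binds the variable promoters, was at 43.3 ± 13.6 CPM in KO and 42.9 ± 9.41 CPM in WT animals. Dnmt3b, a methyltransferase known in mice to methylate the variable promoters early in development, was at 2.21 ± 1.01 CPM in KO and 3.65 ± 3.60 CPM in WT animals (SD, n = 4 each).

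In the GRCm38 build the alpha cluster spans positions 36930285 to 37188897 of chromosome 18 in the RefSeq annotation, the beta cluster 37264998 to 37521419 and the gamma cluster 37661775 to 37841873. Variable exons are 2346 to 3028 bases long in the alpha and 2499 to 3247 bases long in the gamma cluster. Sequence shared between isoforms can send reads of one to another or leave them unassigned. Of all stretches of 50 bases in a variable exon or beta gene, up to 23.4% in the alpha, 12.0% in the beta and 17.9% in the gamma cluster also occur in another member or elsewhere in the transcriptome. Over 10% were shared in 12 of 14 alpha isoforms, 2 beta genes and 5 gamma isoforms.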

How the data were processed

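RNA of J-RGC pools was sequenced from a single end after Smart-seq2 and Nextera XT library preparation, per the labels' protocols. The authors deposited unnormalised read counts per gene, with a file for each library. The submitters' processing notes name the programs Trimmomatic 0.32, TopHat2 2.0.10 and HTSeq 0.6.1 and the mouse build mm10 (GRCm38). Neither the gene annotation nor the strand setting nor the treatment of ambiguous reads is stated. In each library, reads listed as ambiguous were 1.31% to 1.47%, as in no feature 20.0% to 24.8% and as not unique 13.2% to 14.6%, and these lines stayed out of library sizes and tests. No molecular identifiers are described, so counting precision does not cover amplification.

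Counts were summed per animal (4 KO, 4 WT), filtered with filterByExpr, which left 13957 genes, TMM-scaled, and compared between genotypes in R 4.3.3 by edgeR 4.0.16 (glmQLFit with the robust option, glmQLFTest). P-values were adjusted after Benjamini-Hochberg over all genes, and 0.05 was the threshold. The standard error is the log2 fold change divided by the square root of F. The fit was tested on simulated data. Alternatives were DESeq2 1.42.0 and its size factors, no filter, single libraries, a block on library number, limma 3.58.1 voom with the animal as a random effect, and leaving out each animal. Lengths came from GENCODE M21 (alpha, gamma) and RefSeq (beta).

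Members and gene lists were chosen with earlier results of these data known. Named are the 5 c-type isoforms, the 3 other members per cluster with the highest mean CPM and the 2 with the lowest p, the 4 regulators or partners with the lowest p, and Tbr1; others are marked where they appear or are given as extremes of a range. Replicate numbers of KO and WT libraries did not mark shared animals, and the deviations of same-numbered libraries had correlations of -0.03 to 0.14.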

Additional observations from a re-analysis of the deposited data

Results flagged for a closer look

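Within groups of 4 animals, 3 of 50 sets of values held 1 animal far from the other 3 by Dixon's test at 95%, which chance alone gives in about 1 of 20. The alpha cluster sum was 226 CPM in WT animal a, against 293 to 302 CPM in the other WT animals. The c-type share of the gamma counts was 36.0% in WT animal a, against 31.1% to 31.5% in the other WT animals. Pcdhgb6 was at 22.2 CPM in KO animal b, against 8.21 to 10.3 CPM in the other KO animals.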

How the results depend on the processing

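Under every alternative run, 0 protocadherins passed an adjusted p under 0.05. The number of genes called over the whole table moved, at 40 as reported, to 156 with DESeq2, 84 with the 11 libraries as replicates and 74 with limma voom and the animal as a random effect, and leaving out each animal in turn gave 17 to 44, with 22 without KO animal a, 17 without KO animal b, 25 without KO animal d and 18 without WT animal b. With the library number as a replicate block, 43 genes and 0 protocadherins were called. Of 5 same-numbered pairs, 1 matched each other best, which is too few pairs to decide whether the numbers pair the libraries. Of 55 members tested under any setting, 33 kept the sign of their fold change throughout; among the named ones Pcdha3, Pcdhb17, Pcdhgb6, Pcdhgc3 and Pcdhgc5 did not. The edgeR, DESeq2 and voom adjusted p of Pcdhac2 lay between 0.168 and 0.673. Leaving out each animal, the log2 ratio of the alpha sum was 0.20 to 0.32, of the beta sum -0.21 to -0.02 and of the gamma sum -0.07 to 0.17. The alpha ratio was 0.17 without c-type isoforms, an alternative chosen after seeing the data. The c-type share differed, KO minus WT, by 2.44 to 5.68 percentage points in alpha and by -6.30 to -2.32 in gamma. With 4 animals a genotype and pools of 100 cells, the fold change interval excluded changes over 2-fold either way for 10 of 54 members. The same held for 51.6% of all genes tested.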

Other observations

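Over the 54 members tested, WT animal a was the lowest of the 8 animals for 21 (38.9%), beside 23.4% of all genes tested, and the highest for 11 (20.4%), beside 20.7% of all genes. WT animal b was the highest for 0 members, beside 12.6% of all genes. Neighbouring members are not independent of each other.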
